A study of Caenorhabditis elegans with 95 samples.

Results

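These arrays followed the first hours of the cold phase of a temperature cycle in *Caenorhabditis elegans*. The comparison set hour 14 of the warm/cold (WC) day, 2 h into 15°C, against hour 10, 10 h into 25°C, in each of 5 time series (series 1, 2, 3, 4 and 6). It used 10 of the 95 arrays, 5 at hour 14 and 5 at hour 10, and the other 20 WC arrays contributed to the estimate of the error. The animals were hermaphrodites of the wild-type strain N2, kept from L1 larvae on 12 h of 25°C and 12 h of 15°C in constant darkness for 4 days, moved to plates with FUDR (which blocks DNA synthesis and so prevents offspring) as L4 larvae, and collected whole as adults. For the comparisons, constant cold (CC) arrays came from WC animals held at 15°C on the next day, and light/dark (LD) and constant darkness (DD) arrays from animals entrained to light at a constant temperature of 18°C. LD and DD animals had 5 days of entrainment. A control population was kept at 18°C in darkness without entrainment. CC, LD, DD and control arrays thus differ from the WC arrays in more than the temperature step.

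The labels place both hours in 1 series but do not say whether the same population gave both. The growth protocol describes 2 populations under opposing cycles in separate incubators, so the temperature step and a difference between populations cannot be told apart. RNA came from whole bodies, in which fewer cells of a type and less RNA per cell cannot be told apart. The values are scores: GCRMA expression on a log scale, relative to the mean of the probe set over its series, with each array set to mean 0 and variance 1. A difference in score is therefore in SD units of an array, and gives neither a level nor a fold change. The cooling step is the score at hour 14 minus the score at hour 10. A call is a limma p adjusted by Benjamini-Hochberg over 17342 probe sets and under 0.05. Values for the 5 series are listed in the order 1, 2, 3, 4 and 6.

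A worm cannot regulate its body temperature, and the fluidity of its membranes, the folding of its proteins and the speed of its enzymes all follow the plate. Misfolded protein in the endoplasmic reticulum is sensed by the kinases IRE-1 and PEK-1 and by ATF-6, and the IRE-1 branch acts through the transcription factor XBP-1, whose targets include the BiP chaperone HSP-4. In the cytosol, heat shock proteins do the corresponding work and are known for their induction by heat, whereas cold is met by fatty acid desaturases that keep membranes fluid. Many *C. elegans* genes for lectins, lysozymes, antimicrobial peptides, F-box proteins and nuclear hormone receptors belong to large families that respond to the environment.

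The steps of the 5 series were unequal in content. Across the 17342 probe sets, the step of series 3 correlated with that of series 4 (Pearson's r 0.414) and of series 6 (0.330), and series 4 with series 6 (0.282). The steps of series 1 and 2 correlated with those of the other series at between −0.0918 and 0.112. Probe sets of an array share its hybridisation, so these correlations are descriptions. In series 2, the list of 64 kept sperm genes stood apart, with a median score of 3.30 at hour 14 and −1.74 at hour 10. The median step of that list was 0.0341, 5.28, −1.50, −0.0494 and −1.05 in the 5 series. In series 3, the 139 kept cuticle collagen genes had a median step of −1.76, against −0.400 to 0.733 in the other series. Of 29 kept cell type markers, out of 30 looked for, none was called. Fitted steps were 0.256 to 1.46 for markers of early embryos and 0.745 to 1.96 for those of sperm, none at an unadjusted p under 0.05. Each early embryo marker changed sign between series. For each sperm marker, series 2 lay far above the other series, whose steps were near 0 or negative. The part of these transcripts in the results was not tested.

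At 2 h after the temperature drop, 17 probe sets of 15 genes had changed. A single gene was higher, *Y47G6A.3*, and 14 genes were lower. These were the transcription factor gene *xbp-1*, the nuclear hormone receptor gene *nhr-184*, the lectin gene *clec-145*, the transthyretin-related gene *ttr-26*, the RNA-binding protein gene *sym-2* and 9 genes that have only a sequence name. The share called was 0.00577% of probe sets in the higher direction and 0.0923% in the lower direction. All 17 moved the same way in the 5 series and had no overlap between the hours. Of all 17342 probe sets, 0.381% lay wholly higher at hour 14 and 1.34% wholly lower. Counted over genes with 1 probe set each, 0.00764% were called higher and 0.0993% lower. An unadjusted p under 0.05 was reached by 655 probe sets that were higher (3.78%) and 995 that were lower (5.74%). With the 10 arrays alone, paired by series, limma called no probe set (1280 at an unadjusted p under 0.05). Without series 1, 8 were called higher and 34 lower. Without series 2, 3 or 6, the calls were 1 higher and 1 lower in each case, and without series 4, 1 higher and none lower. Each of the 14 lower genes lost its call without at least 3 of the 5 series, left out 1 at a time.

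*Y47G6A.3* has a sequence name only, and no role is given to it here. Its scores were 4.42, 4.66, 6.50, 7.95 and 5.22 at hour 14, against −0.267, −0.788, −0.900, −1.04 and −0.340 at hour 10. Every hour 14 score lay more than 4 array SDs above the highest score of hour 10, and the lowest 2 of the hour 14 scores belonged to series 1 and 2. The cooling step was 6.42 (SE 0.744, limma adjusted p = 0.000299). This gene alone stayed called when any 1 series was left out, with adjusted p between 0.00317 and 0.0192.

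**Figure D1:**
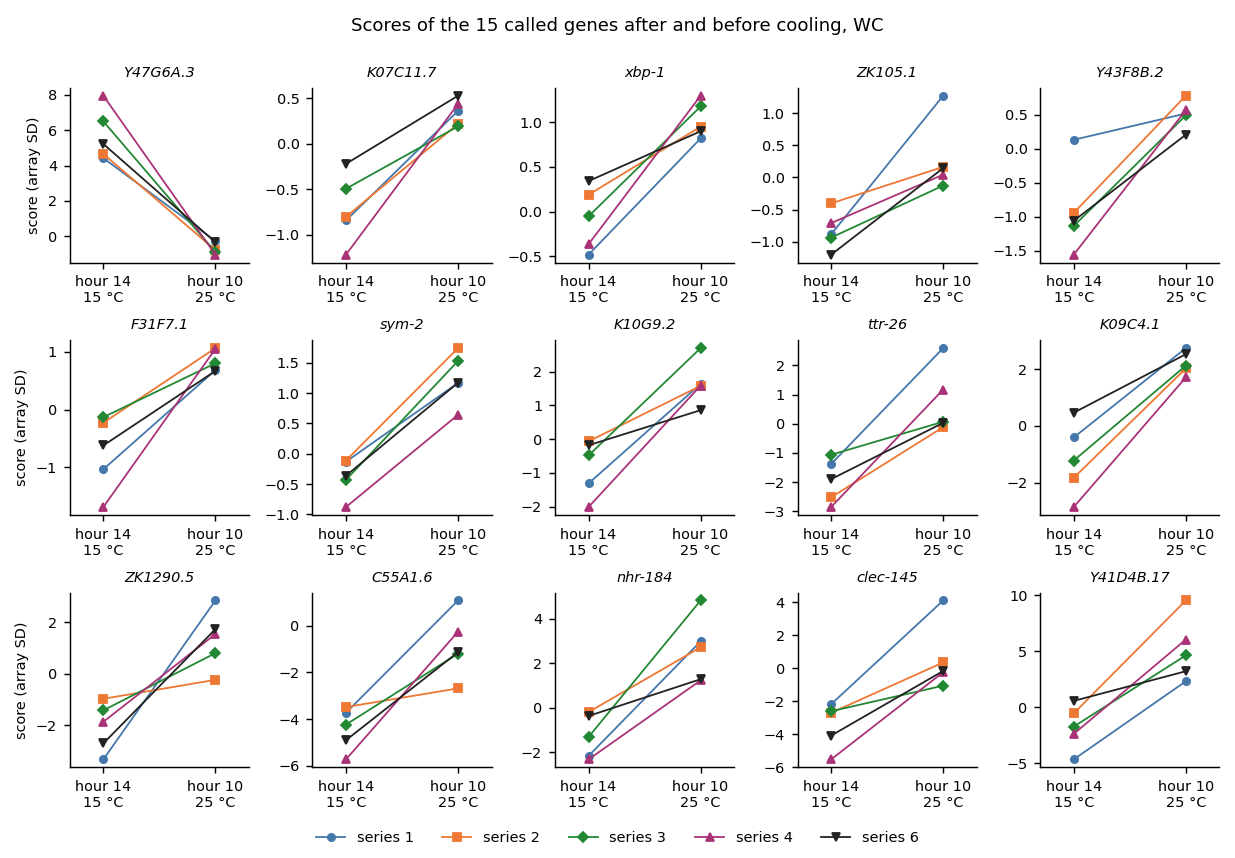
Scores of the 15 called genes on the WC arrays, in SD units of an array, at hour 14 (15°C, left) and hour 10 (25°C, right). Each line is 1 of the 5 series. *Y47G6A.3* was higher at hour 14 in 5 of 5 series, and the other 14 genes were lower in 5 of 5 series, with no overlap between the hours.

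Among the regulators, *xbp-1* fell. Its scores were −0.482, 0.188, −0.0535, −0.365 and 0.340 at hour 14, against 0.816, 0.948, 1.17, 1.29 and 0.896 at hour 10. The hour 14 scores centred near 0 and all hour 10 scores lay close to 1. The step was −1.10 (SE 0.208, adjusted p = 0.0366), and the other probe set of the gene had −0.946 (SE 0.210, adjusted p = 0.0938). Of the 16 kept genes of the list of endoplasmic reticulum folding, *xbp-1* included, 15 had a negative step and 1, the oxidase gene *ero-1*, a positive step of 0.0123. The list's median was −0.334 against −0.00213 over all 13095 genes, and it was negative in each series (−0.444, −0.456, −0.236, −0.861 and −0.228). Only *xbp-1* passed the test. At an unadjusted p under 0.05, 3 of the 16 (18.8%) were lower and none higher, beside 5.62% of all genes lower and 4.40% higher.

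*hsp-4*, which encodes a BiP chaperone of the endoplasmic reticulum, scored −0.290, −0.0612, −0.0641, −0.511 and 0.251 at hour 14, against 1.01, 1.19, 0.455, 1.41 and 0.641 at hour 10. The hours did not overlap, but the step of −1.08 (SE 0.297) did not pass (adjusted p = 0.203). Its probe set can also match other sequences. The stress kinase gene *pek-1* had a step of −1.65 (SE 0.581, adjusted p = 0.380), which rested most on series 2, and the calreticulin gene *crt-1* −0.194. The same list had a median of −0.513 over the corresponding step in CC, where the temperature did not change, of −0.200 in LD and of −0.217 in the non-entrained controls. In DD it was −0.161. At the opposite step of WC, from cold to warm, 14 of the 16 genes were also negative, with a median of −0.219. There, 4 were lower and none higher at an unadjusted p under 0.05. The list thus leaned lower after warming as well as after cooling, and whether its fall depends on cooling was not tested.

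*nhr-184*, a member of the nuclear hormone receptor family of ligand-regulated transcription factors, scored −2.16, −0.194, −1.31, −2.32 and −0.368 at hour 14, against 2.98, 2.71, 4.82, 1.23 and 1.28 at hour 10. Its peak at hour 10 was single: the means of hours 2 and 6 were 0.0821 and 0.00529, against 2.60 at hour 10. The step was −3.88 (SE 0.596, adjusted p = 0.00995), and it stayed called without series 1 or 6 but not without series 2, 3 or 4. The related gene *nhr-43* scored −2.50, −0.0532, −1.34, −0.923 and 0.0834 at hour 14, against 2.04, 5.32, 2.85, 2.95 and 2.52 at hour 10. Its step of −4.09 (SE 0.971) did not pass, with an adjusted p of 0.120. Of 183 kept nuclear hormone receptor genes, 1 was called, and at an unadjusted p under 0.05 there were 9 higher (4.92%) and 17 lower (9.29%), beside 4.40% and 5.62% of all genes (median −0.0217).

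*sym-2* encodes an RNA-binding protein of the hnRNP type. It scored −0.130, −0.111, −0.431, −0.879 and −0.362 at hour 14, against 1.17, 1.74, 1.53, 0.643 and 1.17 at hour 10. The step of −1.63 (SE 0.264, adjusted p = 0.0120) was even over the series, at −1.30, −1.86, −1.96, −1.52 and −1.53. The other probe set of the gene had −2.28 (SE 0.798, adjusted p = 0.377) and a negative step in 4 of 5 series. As with *nhr-184*, hour 10 stood above the other warm hours (1.25 at hour 10, against 0.0477 at hour 2 and 0.154 at hour 6). The list of 52 splicing factors and RNA-binding proteins, which does not hold *sym-2*, had a median of −0.000684, with 1 gene higher and 2 lower at an unadjusted p under 0.05. The bZIP gene *zip-2*, known from the response to infection, had a step of −1.23 (SE 0.286) that was negative in 5 of 5 series and did not pass (adjusted p = 0.117).

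Among the genes of host defence, a lectin fell and the families leaned lower without further calls. *clec-145*, a C-type lectin gene, scored −2.18, −2.71, −2.61, −5.54 and −4.09 at hour 14, against 4.12, 0.354, −1.06, −0.239 and −0.163 at hour 10. The step was −4.03 (SE 0.767, adjusted p = 0.0366), and the high hour 10 score was that of series 1. Its probe set ID marks possible cross-hybridisation, so the share of other lectin transcripts in this score is uncertain. Of 125 kept C-type lectin genes, *clec-145* alone was called. The unadjusted p was under 0.05 for 18 (14.4%) that were lower and none that was higher, beside 5.62% and 4.40% of all genes, and the median was −0.105. The series medians were 0.0409, −0.0344, −0.137, −0.0651 and −0.0297. Those of series 1 and 4 lay near the steps of the sperm marker *spe-11* (0.0410 and −0.0649), values shared at the floor of GCRMA. The median lectin gene thus held no measured change in these 2 series.

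No lysozyme or antimicrobial peptide gene passed the test, although 52 of 66 had a negative step. At an unadjusted p under 0.05, 21 (31.8%) were lower and 1 (1.52%) higher, beside 5.62% and 4.40% of all genes, and the median was −0.397. The 21 became 12 without series 4 and 8 with the 10 arrays alone. The series medians were −1.18, 0.0194, −0.191, −0.663 and −0.311, so that series 1 lay lowest and series 2 near 0. The nearest to a call was *abf-2*, an antibacterial factor gene whose probe set can also match other sequences. It scored −0.636, −1.06, −0.847, −1.76 and −1.24 at hour 14, against 2.69, 0.867, 0.71, 1.75 and 0.587 at hour 10 (step −2.43, SE 0.497, adjusted p = 0.0577).

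Peptide genes of other classes had similar values. The caenacin gene *cnc-4* scored −3.04, −1.56, −2.78, −1.07 and −0.708 at hour 14, against 3.70, 2.00, 1.05, 1.91 and 0.900 at hour 10 (step −3.74, SE 0.957, adjusted p = 0.169). *nlp-33*, which encodes an antimicrobial neuropeptide-like protein, had a step of −2.35 (SE 0.676, adjusted p = 0.243). The saposin-like gene *spp-12* had a step of −4.39 (SE 1.43, adjusted p = 0.314). For *cnc-4* and *nlp-33* the hours did not overlap, whereas those of *spp-12* did, through series 6, which scored 0.0444 at hour 14 and 0.0512 at hour 10.

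The transthyretin-related genes, which encode small secreted proteins, also held a called member. *ttr-26* scored −1.38, −2.52, −1.06, −2.85 and −1.90 at hour 14, against 2.59, −0.115, 0.0696, 1.17 and 0.0313 at hour 10. The step was −2.69 (SE 0.417, adjusted p = 0.00995). Series 1 had the highest score at hour 10, and the scores at hour 14 lay below −1 in all 5 series. Of 37 kept genes, 29 had a negative step, with a median of −0.462. At an unadjusted p under 0.05, 10 (27%) were lower, among them *ttr-6* (−0.892) and *ttr-54* (−1.13), and 3 (8.11%) were higher, among them *ttr-14* (2.77), beside 5.62% and 4.40% of all genes. The 10 became 5 without series 1, 4 without series 4 and 6 without series 6. The list's medians by series were −1.29, −0.0387, 0.0405, −0.298 and −0.352.

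Intestinal proteases and phosphatases leaned the same way, with 29 of 34 genes at a negative step, a median of −0.333 and no call. An unadjusted p under 0.05 was reached by 6 (17.6%), all lower, beside 5.62% of all genes lower. The 6 became 3 without series 6. The cathepsin B-like gene *cpr-4* scored −0.738, −1.41, −1.35, −2.92 and −2.78 at hour 14, against 1.20, −0.291, −0.156, −0.338 and −0.976 at hour 10 (step −1.73, SE 0.368, adjusted p = 0.0672). The hours overlapped, since the hour 14 score of series 1 lay above the hour 10 score of series 6. The aspartyl protease gene *asp-12* had a step of −1.46 (SE 0.409, adjusted p = 0.213). The list's median was negative in 5 of 5 series (−0.416, −0.227, −0.145, −0.310 and −0.259). The 4 intestinal markers had steps between −0.715 and 0.909, and none passed an unadjusted p of 0.05.

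**Figure D2:**
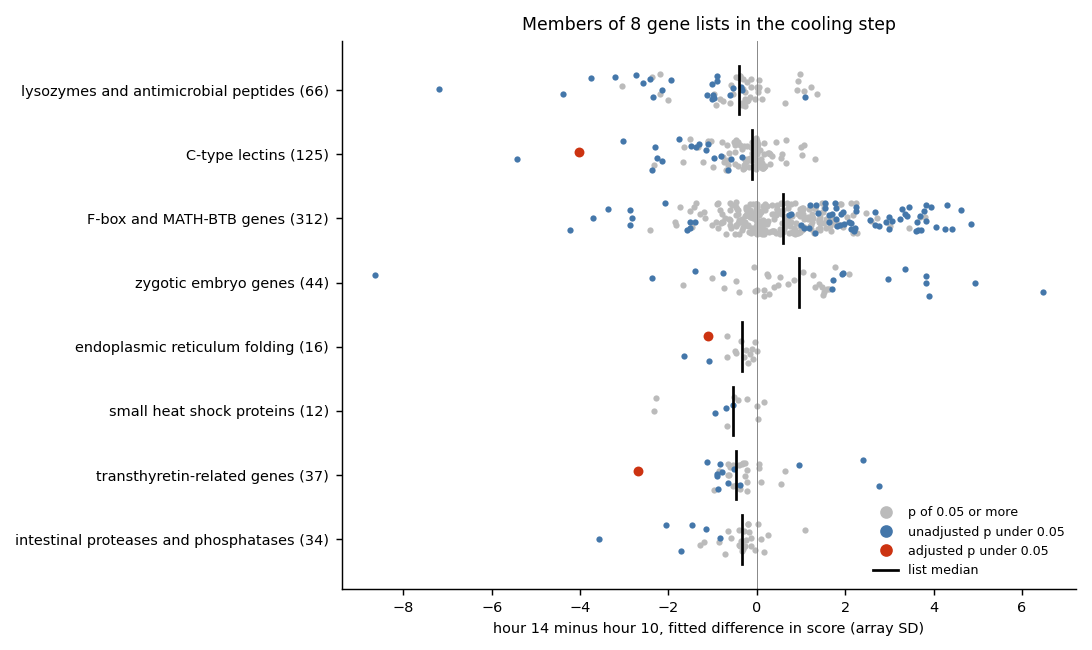
Cooling step of every kept member of 8 gene lists, with 1 probe set per gene, as the fitted difference in score in SD units of an array. Each point is a gene, red where its adjusted p was under 0.05 and blue where only its unadjusted p was, and bars are list medians. Lysozymes and antimicrobial peptides had 21 of 66 genes lower and 1 higher at an unadjusted p under 0.05, and F-box and MATH-BTB genes 57 of 312 higher and 11 lower.

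The remaining called genes, known by sequence names, all fell. *Y41D4B.17* had the largest step of all called genes, −6.89 (SE 1.28, adjusted p = 0.0334). It scored −4.64, −0.536, −1.72, −2.37 and 0.575 at hour 14, against 2.32, 9.53, 4.63, 6.04 and 3.22 at hour 10. Its step ranged from −10.1 in series 2 to −2.65 in series 6, and its call was lost when any 1 series was left out. *C55A1.6* scored −3.73, −3.48, −4.24, −5.73 and −4.91 at hour 14, against 1.09, −2.68, −1.19, −0.253 and −1.13 at hour 10 (step −3.58, SE 0.582, adjusted p = 0.0120). It stayed called without series 1 or 2 but not without series 3, 4 or 6. *ZK1290.5* scored −3.33, −0.972, −1.42, −1.87 and −2.71 at hour 14, against 2.86, −0.233, 0.806, 1.55 and 1.74 at hour 10 (step −3.40, SE 0.647, adjusted p = 0.0366).

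*K09C4.1* scored −0.404, −1.82, −1.22, −2.85 and 0.468 at hour 14, against 2.74, 2.02, 2.12, 1.71 and 2.53 at hour 10. The hour 10 scores lay within about 1 array SD of each other, and those of hour 14 were spread over more than 3. The step was −3.39 (SE 0.629, adjusted p = 0.0334). *K10G9.2* scored −1.31, −0.0649, −0.483, −2.01 and −0.181 at hour 14, against 1.64, 1.58, 2.7, 1.59 and 0.858 at hour 10. Its step of −2.48 (SE 0.492, adjusted p = 0.0495) lay closest to the threshold and was called under none of the 15 alternative settings.

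The last 4 had steps between −1.72 and −1.06. *K07C11.7* was called with both of its probe sets, at −1.06 (SE 0.185, adjusted p = 0.0267) and −1.72 (SE 0.335, adjusted p = 0.0412). *Y43F8B.2* was called with 2 of 3, both of which can match other sequences, at −1.43 (SE 0.261) and −1.51 (SE 0.279, adjusted p = 0.0334 for each). *F31F7.1* scored −1.04, −0.231, −0.134, −1.69 and −0.625 at hour 14, against 0.684, 1.07, 0.803, 1.05 and 0.670 at hour 10 (step −1.60, SE 0.297, adjusted p = 0.0334). *ZK105.1* had a step of −1.12 (SE 0.217, adjusted p = 0.0388), and it lay outside the naming rule and was named after its values were seen.

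After *Y47G6A.3*, no transcript passed in the higher direction. The F-box gene *fbxa-193* came closest. It scored −0.256, 3.33, 3.38, 2.23 and 3.37 at hour 14, against −0.257, −0.568, −0.395, −0.102 and −0.383 at hour 10 (step 2.75, SE 0.558, adjusted p = 0.0548). In 4 series hour 14 stood clear of every hour 10 score, and in series 1 the hours had almost the same score. *K06A5.3* scored 0.0483, 4.32, 5.04, 6.75 and 10.7 at hour 14, against 0.00725, −0.670, −0.797, 1.35 and 0.768 at hour 10 (step 5.25, SE 1.18, adjusted p = 0.103). Its series 1 step of 0.0410 was also that of the markers *ceh-22*, *bli-1*, *spe-11*, *gsp-3* and *gsp-4*. Such shared values mark the floor of GCRMA, so series 1 held no measured change for *K06A5.3*.

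Further transcripts were higher without passing. *B0507.3* had a step of 3.97 (SE 0.897, adjusted p = 0.103), *R11A8.1* of 2.30 (SE 0.545, adjusted p = 0.118), *madf-4*, which encodes a MADF domain protein, of 3.02 (SE 0.730, adjusted p = 0.136), *atl-1*, the ATR checkpoint kinase gene, of 0.977 (SE 0.245, adjusted p = 0.163), and *dsb-3*, a gene for meiotic double-strand breaks, of 1.94 (SE 0.505, adjusted p = 0.178). All of these were higher in 5 of 5 series, and for *madf-4* and *atl-1*, whose probe sets can match other sequences, the hours did not overlap. The sphingosine phosphate lyase gene *spl-2* had a step of 4.46 (SE 1.18, adjusted p = 0.181).

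The F-box and MATH-BTB genes, which encode adaptors of ubiquitin ligases, leaned higher at the cooling step, and also over the same hours without a temperature change. Of 312 kept genes, 216 had a positive step and the median was 0.594. At an unadjusted p under 0.05, 57 (18.3%) were higher and 11 (3.53%) lower, against 4.40% and 5.62% of all genes, and none was called. The 57 became 21 without series 3, 35 with the 10 arrays alone and 91 with series 3, 4 and 6 only. In the corresponding steps, 214 of 285 were positive in the non-entrained controls (median 0.390), 225 of 305 in DD (0.348), 207 of 306 in CC (0.299) and 190 of 290 in LD (0.177). The series medians were 0.0239, 0.0615, 0.683, 0.323 and 0.311, so the family median lay near 0 in series 1 and 2. In series 1 the list's median scores were 0.0455 at hour 14 and 0.0315 at hour 10. These lay near the floor scores of *K06A5.3* in that series (0.0483 and 0.00725), and do not show that the genes stayed unchanged. Members did not all lean one way: *fbxa-51* had a step of −3.71 (SE 0.887, adjusted p = 0.124), *fbxa-53* of −2.09 (SE 0.523, adjusted p = 0.163) and *fbxa-182* of −4.23 (SE 1.16, adjusted p = 0.198).

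The zygotic embryo genes, which the embryo rather than the mother transcribes, also had medians nearer 0 in series 1 and 2 than in series 3, 4 and 6. Their medians were 0.0172, 0.0626, 0.836, 0.878 and 0.658, and 33 of 44 kept genes had a positive step. In series 1 the list's median score at hour 14 was 0.0483, the floor score of *K06A5.3*. The median step of series 1 is therefore no measured absence of change. Of the 44, 11 (25.0%) were higher and 4 (9.09%) lower at an unadjusted p under 0.05, beside 4.40% and 5.62% of all genes. The 11 became 5 without series 3 and 7 without series 4. The list also leaned higher in LD (35 of 43 positive, median 0.512) and in DD (31 of 41, median 0.435), but not in CC (18 of 44, median −0.147). *sdz-16*, a SKN-1-dependent zygotic transcript, scored −0.119, −0.0185, 6.04, 8.37 and 8.07 at hour 14, against 0.736, 0.00522, −0.570, −1.36 and −1.18 at hour 10 (step 4.94, SE 1.29, adjusted p = 0.178), so that only series 3, 4 and 6 were high. *sdz-13* had a step of 6.47 (SE 1.97, adjusted p = 0.276) and *vet-6* of 1.95 (SE 0.558, adjusted p = 0.243), whereas *sdz-24* had −8.64 (SE 2.05, adjusted p = 0.118).

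The zygotic embryo and F-box lists both had medians near 0 in series 1 and 2 and higher ones in series 3, 4 and 6. Among series 3, 4 and 6 the order differed between the lists, and in series 1 both lay at or near the floor. The part of embryo transcripts in the F-box values was not tested. The 4 early embryo markers did not share 1 pattern. *pes-10* had steps of −1.82, −3.77, 5.47, 6.32 and 1.12, and *vet-1* of −2.60, 3.22, 2.31, 0.847 and 0.386. *end-1* had steps of 0.777, 1.00, −1.82, −0.0899 and 1.41 (fitted step 0.256). *end-3* had steps of 0.0400, 1.33, −0.0369, 0.0356 and −0.0206 (fitted step 0.270). With series 3, 4 and 6 only, a choice made after the values were seen, 52 probe sets were called higher and 81 lower. These include 8 of the 17 called over the 5 series.

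**Figure D3:**
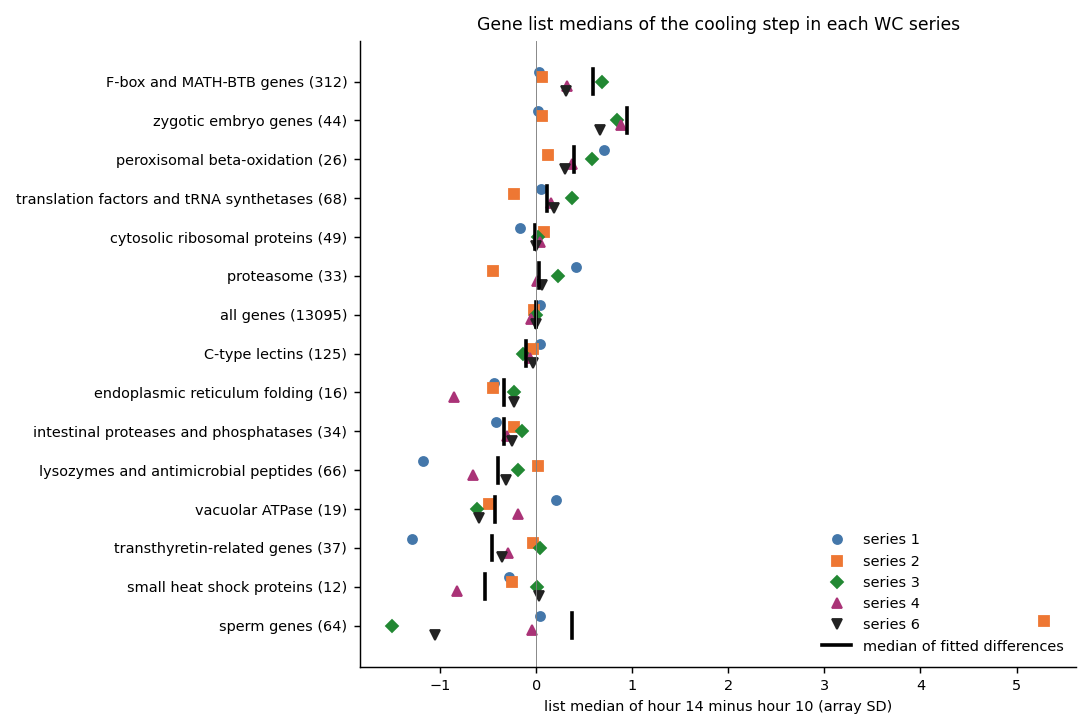
Median cooling step of 15 gene lists in each WC series (coloured symbols) and the median of the fitted differences (black bars), in SD units of an array, with the number of kept genes in brackets. Medians of F-box and zygotic embryo genes lay near 0 in series 1 and 2 and higher in series 3, 4 and 6, those of endoplasmic reticulum folding lay below 0 in all 5 series, and the sperm list reached 5.28 in series 2. In series 1, median scores of the F-box and zygotic embryo lists lay at or near the floor of GCRMA, so a median step near 0 there is no measured absence of change.

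Heat shock genes of the cytosol did not pass at this step. Of 12 small heat shock protein genes, 10 had a negative step (median −0.533), and *hsp-17* (−0.943), *hsp-43* (−0.694) and *hsp-25* (−0.544) had an unadjusted p under 0.05, which makes 25.0% of the list lower beside 5.62% of all genes. Without series 4 none of the 12 reached it. At lights-off in LD, at a constant 18°C, 9 of 11 were negative with a median of −1.06. *hsp-16.2*, a classic heat-inducible gene, scored 1.46, −0.601, 2.09, −1.93 and 4.24 at hour 14, against 4.44, 5.66, −0.162, 3.19 and 3.58 at hour 10, so that its step was negative in 3 series and positive in series 3 and 6. *hsp-70*, a heat-inducible cytosolic chaperone gene, had a step of −4.05 (SE 1.42, adjusted p = 0.376) and the DnaJ gene *dnj-13* of −0.774 (SE 0.231, adjusted p = 0.273). Of the 56 cytosolic chaperone genes, 3 (5.36%) were higher and 4 (7.14%) lower at an unadjusted p under 0.05, near the 4.40% and 5.62% of all genes.

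The lipid genes likewise gave no call. Among 7 fatty acid desaturase genes, *fat-3* had a step of −0.835 (SE 0.306, adjusted p = 0.393) and the other 6 had an unadjusted p above 0.05. Of 7 elongase genes, *elo-2*, which extends palmitate, had 1.32 (SE 0.516, adjusted p = 0.430). In peroxisomal beta-oxidation 21 of 26 genes had a positive step (median 0.396), 4 (15.4%) were higher at an unadjusted p under 0.05 and none lower (4.40% and 5.62% of all genes), and the list's median was positive in 5 of 5 series. Its lowest p was that of the acyl-CoA oxidase gene *acox-3* (1.85, SE 0.536, adjusted p = 0.253). The acyl-CoA synthetase gene *acs-2* had −5.13 (SE 1.61, adjusted p = 0.282).

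Other metabolic groups lay mostly below 0. For glycerol, trehalose and glycogen, 12 of 13 genes had a negative step (median −0.685), with the trehalose phosphatase gene *gob-1* at −1.21 and the trehalase gene *tre-2* at −0.995. For the vacuolar ATPase, the proton pump of lysosomes and of the apical gut membrane, it was 18 of 19 (median −0.430), beside 16 of 19 in the non-entrained controls (−0.362) and in DD (−0.224). Its subunit gene *vha-17* scored −0.697, −0.0677, −0.333, −0.0277 and 0.139 at hour 14, against 0.268, 0.426, 0.217, 0.173 and 0.627 at hour 10 (step −0.539, SE 0.145, adjusted p = 0.193). Of 63 cytochrome P450 genes, 8 (12.7%) were lower and 2 (3.17%) higher at an unadjusted p under 0.05, beside 5.62% and 4.40% of all genes. The detoxification gene *cyp-13A2* had −8.69 (SE 2.12, adjusted p = 0.146), with scores of −4.96, −2.13, −0.389, −3.08 and −2.89 at hour 14, against −0.367, 6.04, 3.69, 6.01 and 14.6 at hour 10.

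No gene had an unadjusted p under 0.05 among 17 thermosensory and photosensory genes (median −0.00409), 13 clock gene homologs (−0.0377), 49 cytosolic ribosomal protein genes (−0.0175), 33 proteasome genes (0.0300) or 5 vitellogenin genes (−0.0763). In series 1, the median step of the thermosensory and clock lists was 0.0410, the shared floor value given above. In series 4, that of the thermosensory list was −0.0649, also the step of the sperm marker *spe-11*. Such medians show no measured absence of change. Among the clock homologs the lowest p was that of *lin-42*, the homolog of *period*, at −0.515 (adjusted p = 0.595). A list of 5 genes was drawn up for the cold shock programme of *zip-10*, and it was not limited to genes that *zip-10* controls. In it, *srr-6* had a step of −4.54 (SE 1.43, adjusted p = 0.282) and *asp-17* of −3.56 (SE 1.23, adjusted p = 0.369), both at an unadjusted p under 0.05. The other 3 of the 5 genes had positive steps, *cpr-3* of 0.0307 and *isy-1* of 0.0159 among them. The list's median of 0.0159 was the value of *isy-1*, so it does not describe the genes that *zip-10* controls.

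A further comparison of WC hours left out hours 14 and 10. As it does not use hour 10, a fall from that hour can last through the cold without a call in it (*xbp-1*, below). The later cold phase (hours 18 and 22 averaged) was set against the earlier warm phase (hours 2 and 6 averaged), and 617 probe sets were called higher (3.56%) and 379 lower (2.19%). These counts were 1187 and 602 without series 2, 137 and 83 without series 3, 194 and 102 without series 4, and 200 and 99 without series 6. Of the 17 probe sets called at the cooling step, 16 had the same sign in this comparison and 5 were also called, all lower. These were *K09C4.1* (−5.30, adjusted p = 8.62e-07), *ttr-26* (−1.24, adjusted p = 0.0155), *ZK105.1* (−0.63, adjusted p = 0.0176), *ZK1290.5* (−1.79, adjusted p = 0.0233) and *F31F7.1* (−0.80, adjusted p = 0.0260). The mean scores of *K09C4.1* were 1.13, 3.28 and 2.22 at hours 2, 6 and 10 and −1.17, −3.60 and −2.58 at hours 14, 18 and 22.

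*Y47G6A.3* did not last. Its mean scores were −0.611, −0.891, −0.668, 5.75, 0.492 and −1.24 at hours 2, 6, 10, 14, 18 and 22. The difference between later cold and earlier warm hours was 0.378 (adjusted p = 0.722), and the cooling step exceeded it by 6.04 (adjusted p = 0.0205), the only such difference that was called, by a test added after the values were seen. It was not called without series 2, 3 or 4. Without series 1, 4 such differences were called above 0 and 20 below. *fbxa-193* had a like course without passing (0.224, −0.109, −0.341, 2.41, −0.0127 and −0.284). *xbp-1* climbed through the warm phase (−0.289, 0.625 and 1.03) and stayed near its hour 14 mean in the cold (−0.0747, −0.0620 and −0.218). *C55A1.6* was lowest at hour 14 and was back at −0.572 by hour 22.

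**Figure D4:**
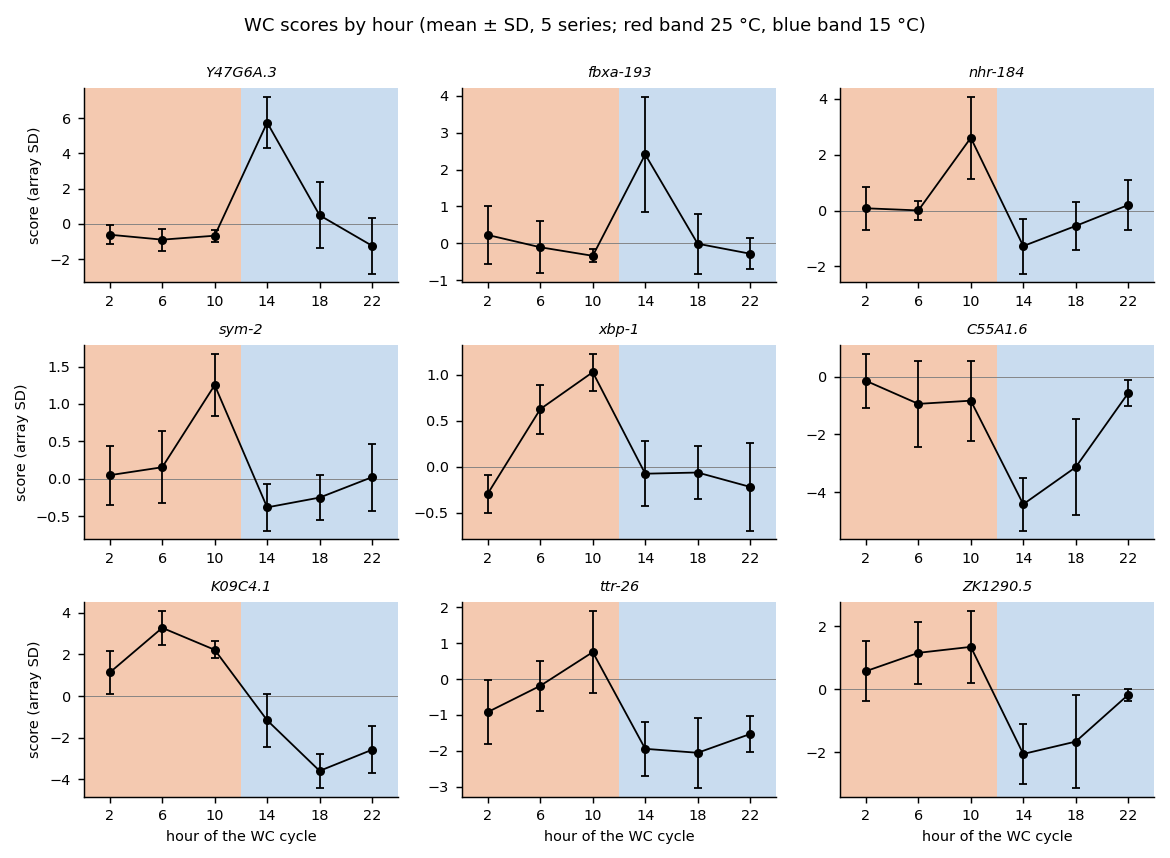
Mean scores ± SD of 9 genes over the 6 hours of the WC day (n = 5 series), in SD units of an array, with the warm phase in red and the cold phase in blue. *Y47G6A.3* was high at hour 14 only, *nhr-184* and *sym-2* at hour 10 only, and *K09C4.1* stayed low through the cold phase, whereas *fbxa-193* did not pass the test.

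The opposite temperature step was compared through the sum of both steps. The warming step (hour 2 minus hour 22) gave no call in limma, with 6.11% of probe sets higher and 8.02% lower at an unadjusted p under 0.05. A gene that answered both steps in opposite ways would have a sum near 0, and *K09C4.1* had a cooling step of −3.39 and a warming step of 3.72 (adjusted p = 0.0673), which summed to 0.328 (adjusted p = 0.884). *B0507.3* (3.97 and −4.07), *acox-3* (1.85 and −1.93) and *ugt-63*, a UDP-glucuronosyltransferase gene (−2.79 and 2.86), likewise had sums near 0, and neither step passed for them. For *Y47G6A.3* the warming step was 0.626 and the sum 7.05 (adjusted p = 0.0176). It was the only probe set whose sum differed from 0 after adjustment, beside 7.01% above 0 and 8.29% below 0 at an unadjusted p under 0.05. Without series 2, 3 or 4 no sum was called above 0. Without series 1, 7 sums were called above 0 and 17 below.

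The same clock hours were also sampled without a temperature change. In CC (3 series, all at 15°C), hour 38 minus hour 34 gave no call in limma, with 5.53% of probe sets higher and 8.07% lower at an unadjusted p under 0.05. Lights-off in LD gave none either (1.76% and 2.61%), nor did the same hours in DD (2.63% and 2.77%) or in the non-entrained controls (0.724% and 1.06%). In the CC step, the hour 34 array of series 3 and the hour 38 array of series 6 held pooled replicates, which no WC array did. *Y47G6A.3* had a step of 6.42 in WC, of 1.69 (SE 0.954, adjusted p = 0.426) in CC and of 3.50 (SE 1.99, adjusted p = 0.935) in LD. The cooling step exceeded that of CC by 4.73 (SE 1.23, adjusted p = 0.251) and that of LD by 2.92 (SE 1.82). Neither difference passed.

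Over all probe sets the cooling step was not told apart from either, with 0 called against CC in limma (3.82% of probe sets above it and 4.54% below it at an unadjusted p under 0.05) and 0 against LD (1.40% and 1.64%). Against CC, 4 were called above and 3 below without series 3, 1 and 4 without series 4, and 0 and 4 without series 6. Against LD, 3 were called above and 2 below without LD series 3, and 2 and 2 without LD series 4. The values lay apart for some genes: *nhr-184* had −3.88 in WC, −0.0308 in CC and 0.147 in LD, and *ZK1290.5* −3.40, 0.757 and −1.75. They lay close together for others. *K10G9.2* had −2.48 in WC and −2.10 in CC, and *C55A1.6* had −3.58 in WC and −3.14 (SE 1.01) in the non-entrained controls. *K07C11.7* had −1.06 in WC and −0.980 in LD, and *F31F7.1* had −1.60 in WC and −1.38 in LD. None of these steps outside WC passed. Of the transthyretin-related genes, 29 of 37 had a negative step in WC, whereas 35 of 35 had a positive step in CC (medians −0.462 and 0.650). In LD, 27 of 33 were negative (median −0.252), as in WC. For lysozymes and antimicrobial peptides it was 52 of 66 negative in WC and 49 of 69 positive in CC (medians −0.397 and 0.462), and 43 of 68 were negative in LD (median −0.121). The difference between the lists' medians was not tested.

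**Figure D5:**
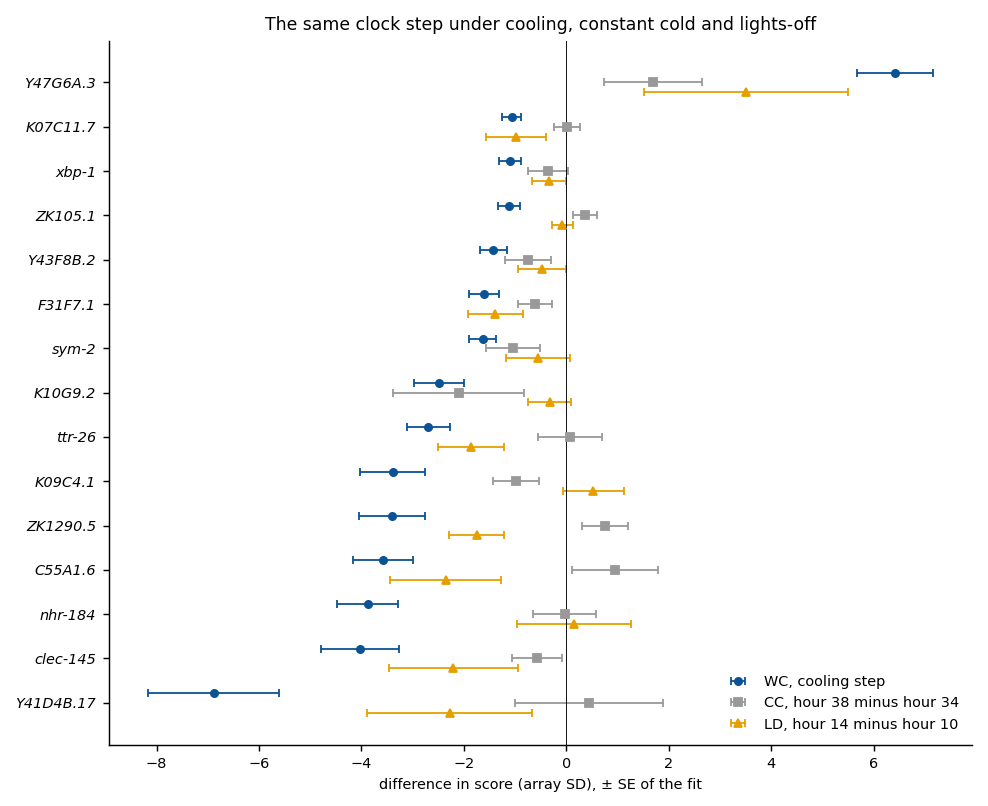
The step of the 15 called genes in WC (blue, hour 14 minus hour 10, 5 series), in CC at a constant 15°C (grey, hour 38 minus hour 34, 3 series) and at lights-off in LD (orange, hour 14 minus hour 10, 3 series), as fitted differences in score ± SE in SD units of an array. *Y47G6A.3* was at 6.42, 1.69 and 3.50, and no difference between conditions passed the adjusted test.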

How the data were processed

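Whole adults were profiled on Affymetrix *C. elegans* Genome Arrays. The authors derived log2 values with GCRMA (R 2.7.1), centred each probe set on its series and standardised each array, so that the deposited unit is a score. Genome build and alignment are not given in the sources used here. Of 22625 probe sets, 77 controls and 5206 within a root mean square of 0.1 of the floor of the WC arrays were left out, and 17342 were tested.

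limma 3.58.1 (R 4.3.3) fitted hour and series over the 30 WC arrays, and joint fits compared conditions. The p values were adjusted by Benjamini-Hochberg. Fits were tested on simulated data. Alternatives changed the threshold, the arrays, the series term, the filter, the scaling, the weights and the variance moderation, and left out each series in turn. Tables and plots were made with Python 3.11.15, pandas 2.3.3, numpy 2.4.6 and matplotlib 3.10.9. Each list gene has 1 probe set, chosen by ID. Besides those marked above, the probe sets of *nlp-33*, *pek-1*, *hsp-70*, *hsp-43*, *hsp-25* and *fbxa-182* can also match other sequences. The same holds for *acox-3*, *tre-2*, *cpr-3*, *isy-1*, *pes-10*, *gsp-3* and *gsp-4*. Named genes are the 12 largest called per direction (where fewer, those of lowest p), with the same sign in 5 series, and the 4 members of lowest adjusted p per list. *ZK105.1*, *ero-1*, *crt-1* and the embryo markers were named after their values were seen. The members and lists were chosen with earlier results of these data known. The series number pairs the hours by the labels. Deviations of the same-numbered arrays correlated between −0.289 and 0.211. The highest r between WC arrays was 0.635, so no pair looked like 1 array deposited again. No promoter motif search was run. Nothing in the labels says that series were separate cultures, although the paper describes the time series experiments as independent. For the cooling step, p rests on the spread left after the hour and series terms, pooled over the 30 WC arrays. It is not a measure of how the step itself varied between series.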

Additional observations from a re-analysis of the deposited data

Results flagged for a closer look

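In 6 of 79 genes and list medians checked, 1 of the 5 series lay far from the others in its cooling step, and chance flags about 1 in 20. Series 2 was the one in 3 of these. *pek-1* had −4.53 in series 2, against −1.47 to −0.403 in the others. *dnj-13* had −1.51 in series 2, against −0.651 to −0.497. *gob-1* had −2.74 in series 2, against −1.09 to −0.584. *acs-2* had −12.9 in series 6, against −4.33 to −1.25, *acox-3* had 4.31 in series 1, against 0.655 to 1.54, and *B0507.3* had 1.39 in series 4, against 4.22 to 4.83.

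*Y47G6A.3* differed between contrasts in 2 tests. Its cooling and warming steps summed to 7.05 (limma adjusted p = 0.0176), and its cooling step exceeded the later difference between cold and warm hours by 6.04 (adjusted p = 0.0205), with a step that was positive in 5 of 5 series. The cooling step alone was 6.42, so both values rest mostly on the step by which the gene was picked. They are no separate evidence for that step. Neither call held without series 2, 3 or 4, left out singly.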

How the results depend on the processing

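For the cooling step (1 probe set called higher, 16 lower), an adjusted p under 0.01 left 2 lower, the 10 arrays alone left 0 higher and 0 lower, and arrayWeights left 1 lower. Rescaling by the median absolute deviation left 5 lower, quantile normalization gave 2 higher, and the fit with no replicate block gave 2 higher. Without single series the calls were 1 to 8 higher and 0 to 34 lower, and with series 3, 4 and 6 only, a choice made after seeing the data, 52 higher and 81 lower. Without single series, the sum of the cooling and warming steps gave 0 to 7 called above 0 and 0 to 17 below, the later cold against the earlier warm hours 137 to 1187 higher and 83 to 602 lower, and the cooling step against the later cold 0 to 4 above and 0 to 20 below. Against constant cold there were 0 to 4 above and 3 to 4 below without series 3, 4 or 6 in turn. Series 1 and 2 were not left out singly in that comparison. With WC series 3, 4 and 6 only, there were 5 above and 12 below. Against lights-off there were 0 to 3 above and 0 to 2 below, the highest without LD series 3. Over the alternatives tried, no named gene reversed. *Y47G6A.3* lost its call with the 10 arrays alone (adjusted p = 0.452) and kept it in the other 14 settings. The cause of these changes was not tested. The number of arrays limits the precision, and a score near the floor of GCRMA carries no measured change.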
